A study of Homo sapiens with 4 samples.

Results

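The 48 genes described here encode RNA polymerase I, which transcribes ribosomal RNA, and the nucleolar proteins that turn its transcript into ribosomal subunits. They were chosen as a named list, by symbol, with earlier results of these data known. All 48 were found among 23444 entries in the deposited table. The RNA came from U87-MG, a human glioblastoma line long kept in culture, and was sequenced as 4 libraries. The 2 shCON libraries carried a negative control hairpin and the 2 shMAGED2 libraries a short hairpin RNA against MAGED2, a member of the melanoma antigen family encoded on the X chromosome. The series design calls the knockdown stable, whereas the treatment text in the labels speaks of transient transfection with GIPZ hairpin plasmids against another gene, ZDHHC15, with a scrambled control and harvest at 36 h. Which applies was not resolved, and how many hairpin sequences were used is not stated in the labels. No label says that replicates came from separate cultures. The p-values therefore measure the spread between these libraries, which may be technical.

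A ribosome begins as 1 long precursor RNA made by RNA polymerase I in the nucleolus. Small nucleolar ribonucleoproteins (snoRNPs), which carry guide RNAs of the box C/D or box H/ACA type, methylate or pseudouridylate it, and ordered sets of assembly factors fold and cut it into the RNAs of the small and the large subunit. Growing and dividing cells make much of this machinery, and tumour cells often have enlarged nucleoli.

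MAGED2 itself was low in both knockdown libraries. It stood at 175 and 178 CPM (counts relative to the library total after TMM scaling) in shCON 1 and 2 and at 17.9 and 21.7 CPM in shMAGED2 1 and 2, a log2 change of −3.16 (SE 0.13; edgeR adjusted p = 0.000654, from its quasi-likelihood test with Benjamini-Hochberg adjustment, as throughout). ZDHHC15 had 0 counts in all libraries, where 3 counts would be 0.0828 to 0.105 CPM, so this depth could not show whether it changed. Total counts ran from 28673774 to 36234336. The library shMAGED2 1 stood apart in its share of counts from mitochondrially encoded genes, 10.1% against 3.90% to 4.87% in the other libraries. The glioma and mesenchymal markers VIM, CD44, FN1 and TNC were abundant, VIM at 7577 to 8802 CPM, while the glial markers GFAP (0.951 to 3.03 CPM) and OLIG2 (1.77 to 5.76 CPM) were low and SOX2 (at most 0.115 CPM) was near 0. The 10 markers of this list summed to 12051 and 11730 CPM in shCON and to 13330 and 11391 CPM in shMAGED2, and 3 of them passed the test between the groups. NES, nestin, an intermediate filament protein of neural progenitors, rose from 4.73 and 5.66 to 19.3 and 18.8 CPM (edgeR adjusted p = 0.002). OLIG2, a transcription factor of the oligodendrocyte lineage, fell from 5.16 and 5.76 to 1.77 and 2.21 CPM (edgeR adjusted p = 0.0158). CHI3L1, a secreted glycoprotein, fell from 782 and 730.2 to 609 and 501 CPM (edgeR adjusted p = 0.0447). Of markers of other cell types, 5 of 6 immune, 5 of 6 epithelial, 3 of 6 neuronal and 2 of 5 endothelial genes stayed under 1 CPM in all libraries. Their summed levels were 380.4 to 603 CPM for immune genes, nearly all of it CD68, then 2.56 to 4.67 for epithelial, 43.7 to 50.1 for neuronal and 8.47 to 14.0 CPM for endothelial genes, of which KDR fell (log2 change −0.68; edgeR adjusted p = 0.0429). The part of these markers in the results was not tested.

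Promoter sequence was examined because MYC and related basic helix-loop-helix factors, known regulators of nucleolar genes, bind the E-box CACGTG. RefSeq promoter windows (GRCh38.p14, 250 bases before the annotated start) were matched by symbol for 41 of the 48 genes. The letters CACGTG, which read the same on both strands, occurred in a window of 7 of these 41 genes (17.1%). By gene, the share was 11.3% of 10420 tested genes and 7.73% of all 27305 genes with a window. Counted by window, 7 of 51 windows of these genes held CACGTG, against 6.34% of all 35116 windows. Shown are NAT10 and LYAR, the genes with the smallest p among those that hold it, and FBL, the gene with the smallest p among those that do not, with CACGTG in capitals. Each is written 5′ to 3′ on the strand of its gene. NAT10 is the whole window (chr11:34105379-34105628, plus strand), LYAR the 30 bases around the motif (chr4:4290068-4290097, minus strand) and FBL the 215 bases outside the annotated gene (chr19:39846415-39846629, minus strand).
NAT10: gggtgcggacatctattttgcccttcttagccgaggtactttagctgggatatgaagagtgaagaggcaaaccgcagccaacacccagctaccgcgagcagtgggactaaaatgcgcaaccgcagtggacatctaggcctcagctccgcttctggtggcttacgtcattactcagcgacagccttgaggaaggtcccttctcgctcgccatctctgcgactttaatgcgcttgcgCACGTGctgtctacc
LYAR: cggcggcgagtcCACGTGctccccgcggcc
FBL: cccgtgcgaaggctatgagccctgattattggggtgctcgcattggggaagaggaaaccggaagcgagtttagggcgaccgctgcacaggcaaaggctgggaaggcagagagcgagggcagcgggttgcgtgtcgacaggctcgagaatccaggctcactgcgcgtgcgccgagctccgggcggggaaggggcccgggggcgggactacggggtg
In NAT10 and LYAR the motif begins 15 and 64 bases before the RefSeq start and lies inside the gene as GENCODE 29 draws it, which starts further upstream. Of the 7 genes with the motif 5 rose in shMAGED2, and of the 34 without it 17 rose, with median log2 changes of 0.56 and 0.37. Among tested genes at large, 14.4% of those with the motif and 13.5% of those without it rose. A match is a run of letters and not a site shown to be bound.

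Most of the 48 genes were higher in the knockdown libraries. All 48 passed the filter on low counts, and no gene had fewer than 337 counts in a library. In shMAGED2 25 rose (52.1%) and 1 fell, while 12.3% of the 15293 genes tested rose and 11.6% fell (23.9% in either direction). Among the 9256 tested genes with a mean CPM at least that of the lowest of the 48, 16.3% rose and 13.6% fell. The rises ran from 1.25-fold for HEATR1 to 2.51-fold for LYAR. Of them 14 were at least 1.5-fold and 3 at least 2-fold, those of LYAR, NOLC1 and NOP16. The share of all genes past these fold cuts was not counted, so they describe the 48 genes alone. At an unadjusted p under 0.05 in edgeR, 33 were higher and 2 lower. The share of all genes at this looser cut was not counted, so no excess is read from it. Of the 22 genes that did not pass, 18 had a positive and 4 a negative estimate. The median log2 change over the 48 genes was 0.40, against 0.0028 over all genes tested. Both shMAGED2 libraries lay above both shCON libraries for 39 of the 48 genes (33.0% of all genes tested) and below both for 3 (33.0% of all genes tested).

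**Figure D1:**
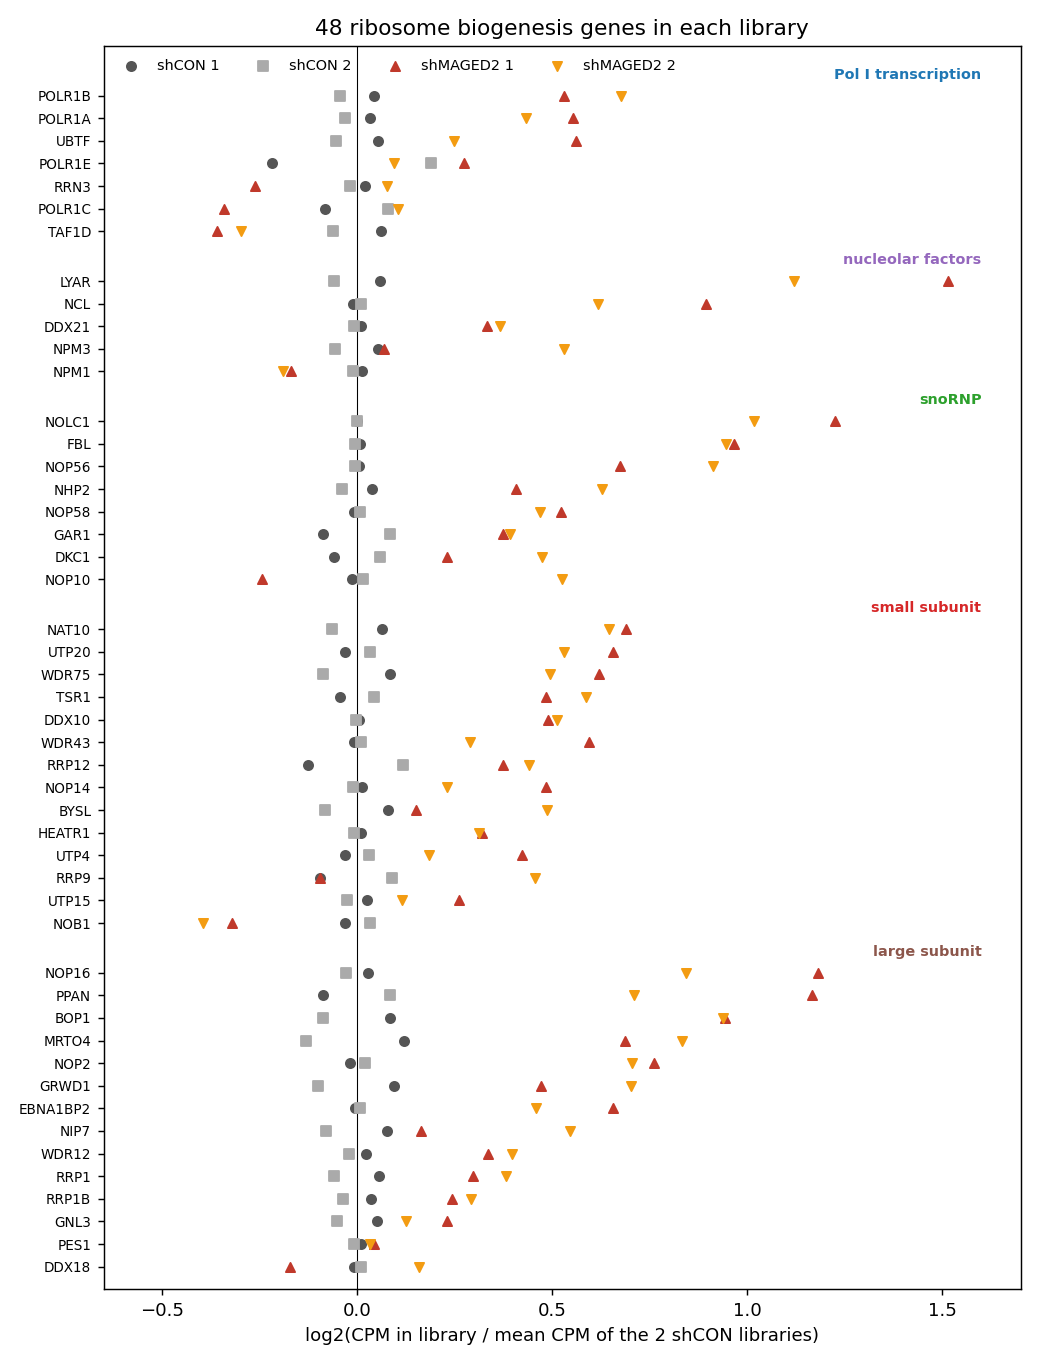
Level of each of the 48 genes in each library, as the log2 ratio of its CPM to the mean of the 2 shCON libraries. Grey points are shCON and coloured points shMAGED2 libraries, with genes grouped by step; for 39 genes both coloured points lie to the right of both grey ones, and for NPM1, TAF1D and NOB1 both lie to the left.

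With a library left out, the spread in the test came from the group that stayed whole. As it did over all genes tested, the count of rises among the 48 moved with the library left out. Without shCON 1 and without shCON 2 it was 6 rises in each case, with the lone control assumed to vary like the knockdown pair, and without shMAGED2 1 and 2 it was 36 and 34 rises. The median log2 change of the 48 genes was 0.42 without shCON 1 and 0.44 without shCON 2, against 0.40 with all libraries. LYAR, NOLC1, FBL, BOP1 and NOP16 passed in all 15 other settings that were run. The shMAGED2 pair was the more spread: over the 48 genes the median absolute log2 difference was 0.14 between its libraries and 0.068 between the shCON libraries, and over all genes tested these values were 0.23 and 0.11. The difference inside the shMAGED2 pair had no common direction, since 23 genes were higher in shMAGED2 2 and 25 in shMAGED2 1. With the mitochondrially encoded genes removed, an alternative chosen after seeing the data, 25 genes rose and 1 fell, as before. In bulk RNA, more cells in a growing state and more of a transcript per cell cannot be told apart.

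**Figure D2:**
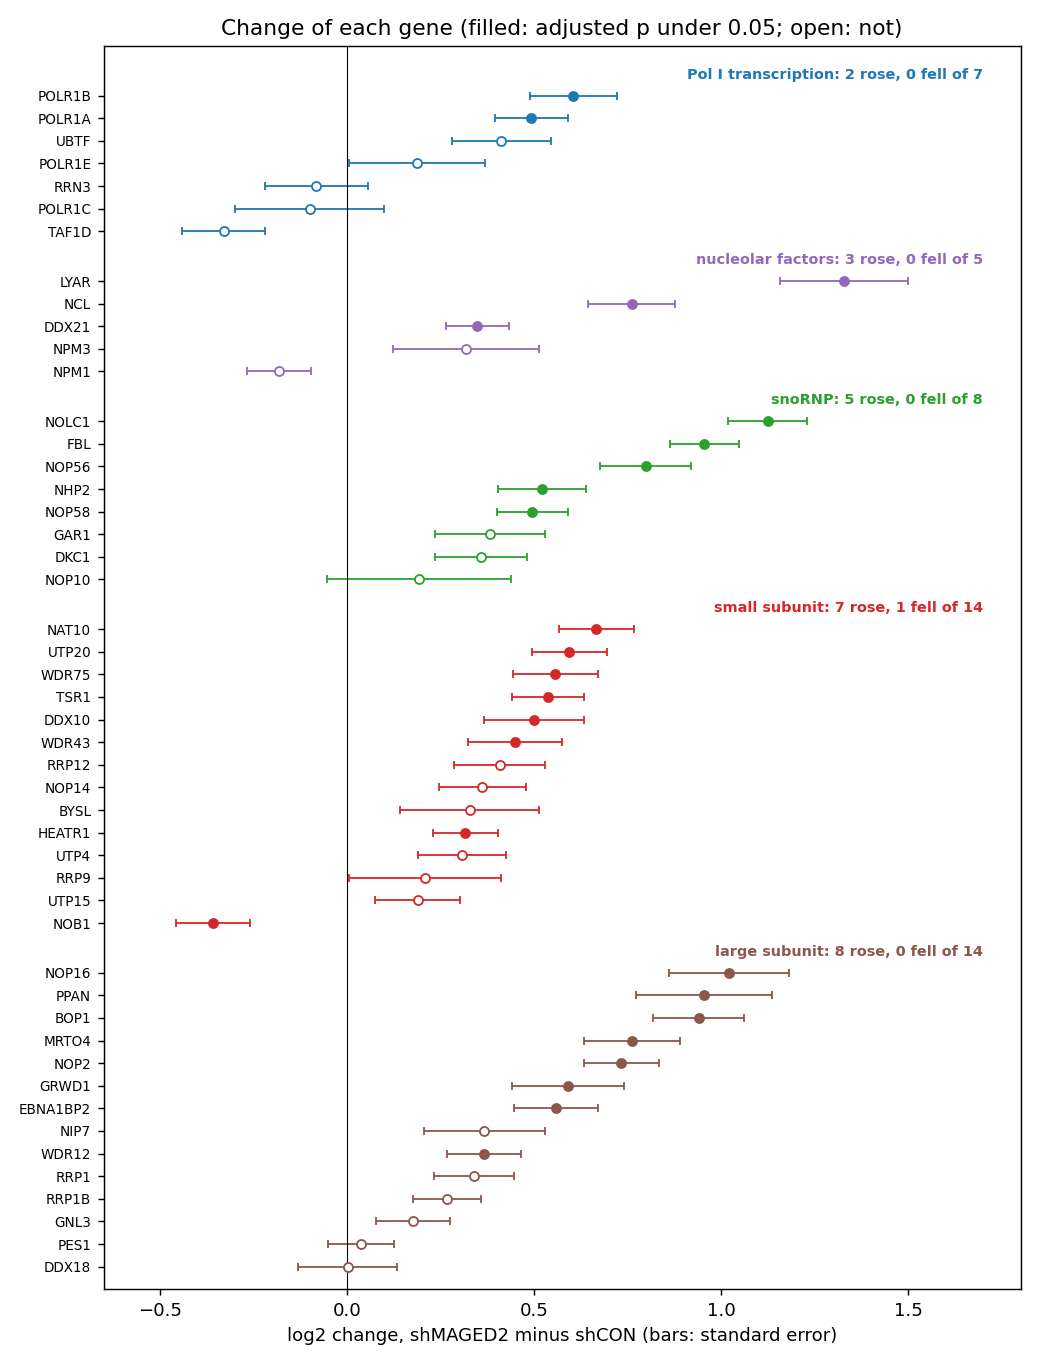
Log2 change of each gene, shMAGED2 minus shCON, from edgeR's quasi-likelihood fit, with its standard error as the bar. Filled points passed an adjusted p of 0.05 and open points did not; 25 filled points lie to the right of 0 and NOB1 is the filled point to its left.

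Transcription by RNA polymerase I was the step with the most mixed values. Of 7 genes 2 rose, both for large catalytic subunits of the enzyme, and the median log2 change was 0.19. POLR1B, the second largest subunit, was at 36.9 and 34.7 CPM in shCON and at 51.7 and 57.2 CPM in shMAGED2 (log2 change 0.60, SE 0.12; edgeR adjusted p = 0.0169). Both knockdown values lay above both control values. POLR1A, the largest subunit, was at 101 and 97.0 CPM against 146 and 134 CPM (log2 change 0.49, SE 0.10; edgeR adjusted p = 0.018), again without overlap. POLR1A missed the threshold in both limma fits to the authors' FPKM (fragments scaled by gene length and by library size), where POLR1B passed. Without shCON 1 and without shCON 2 both genes missed the threshold, with log2 changes of 0.65 and 0.56 for POLR1B and of 0.52 and 0.46 for POLR1A.

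The factors that bring the polymerase to its promoter did not pass. UBTF, which coats the ribosomal RNA genes and bends their DNA, was at 85.4 and 79.2 CPM in shCON and at 121 and 97.7 CPM in shMAGED2 (log2 change 0.41, SE 0.13; edgeR adjusted p = 0.0713). The groups did not overlap, but the knockdown libraries differed from each other by more than the nearer one did from the controls. TAF1D, a subunit of the promoter selectivity factor SL1, was the gene of this step with the lowest estimate, at 57.3 and 52.7 CPM in shCON and 42.9 and 44.7 CPM in shMAGED2 (log2 change −0.33, SE 0.11; edgeR adjusted p = 0.0802). It was lower in both knockdown libraries. RRN3, the initiation factor that joins the polymerase to SL1, had a log2 change of −0.08 (SE 0.14). POLR1C, a subunit shared with RNA polymerase III, had one of −0.10 (SE 0.20), and POLR1E, part of a subunit pair that helps initiation and elongation, one of 0.19 (SE 0.18). For these 3 genes the groups overlapped.

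Of the 5 multifunctional nucleolar proteins 3 rose. LYAR, a zinc finger protein of the nucleolus that acts in ribosomal RNA transcription and processing (chromosome 4, 4267701 to 4290169), had the highest change of all 48 genes. It stood at 18.1 and 16.7 CPM in shCON and at 49.8 and 37.9 CPM in shMAGED2 (log2 change 1.33, SE 0.17; edgeR adjusted p = 0.00492). The lower knockdown value was still more than 2-fold above either control. NCL, nucleolin, which binds nascent ribosomal RNA and nucleolar chromatin, was at 519 and 526 CPM against 970.2 and 801 CPM (log2 change 0.76, SE 0.12; edgeR adjusted p = 0.00831). DDX21, an RNA helicase that links polymerase I transcription to processing, was at 239 and 236 CPM against 299 and 306 CPM (log2 change 0.35, SE 0.09; edgeR adjusted p = 0.0337). Neither gene's groups overlapped. DDX21 missed the threshold with library size alone, in both fits to FPKM, with a replicate block and without either shCON library, and passed in 9 of the 15 other settings.

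Nucleophosmin, NPM1, a histone and ribosomal protein chaperone that builds the outer layer of the nucleolus, was the most abundant of the 48 transcripts and did not rise. It was at 1259 and 1240.0 CPM in shCON and at 1109.5 and 1094 CPM in shMAGED2 (log2 change −0.18, SE 0.09; edgeR adjusted p = 0.177), lower in both knockdown libraries. GENCODE 29 names 45 pseudogenes after NPM1, so how reads were shared out among them bears on its values. Its small relative NPM3 was at 15.8 and 14.6 CPM against 16.0 and 22.0 CPM (log2 change 0.32, SE 0.19; edgeR adjusted p = 0.286), with 1 knockdown library next to the controls and the other above them. The ratio of NPM3 to NPM1, taken from the authors' FPKM (fragments scaled by gene length and by library size), was 0.0217 and 0.0208 in shCON and 0.0258 and 0.0353 in shMAGED2.

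The snoRNP proteins held the gene with the smallest p of the 48, and all 8 had positive estimates. Of them 5 rose, with a median log2 change of 0.51 over the 8. NOLC1, a phosphoprotein that chaperones snoRNPs between Cajal body and nucleolus (chromosome 10, 102152176 to 102163871), was at 149 CPM in both shCON libraries and at 347 and 301 CPM in shMAGED2 (log2 change 1.12, SE 0.10; edgeR adjusted p = 0.00183). The control libraries were nearly equal, and both knockdown values were at least 2-fold above them.

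Box C/D particles guide 2′-O-methylation, and the 3 of their core proteins among the 48 genes rose. Fibrillarin, FBL, the methyltransferase itself (chromosome 19, 39834458 to 39846414), was at 63.8 and 63.2 CPM against 124 and 122 CPM (log2 change 0.96, SE 0.09; edgeR adjusted p = 0.002). NOP56, a scaffold of the particle, was at 42.6 and 42.3 CPM against 67.8 and 80.0 CPM (log2 change 0.80, SE 0.12; edgeR adjusted p = 0.00826). Its paralog NOP58 was at 67.4 and 68.1 CPM against 97.4 and 93.7 CPM (log2 change 0.50, SE 0.09; edgeR adjusted p = 0.0165). The replicates of FBL and NOP58 lay close together in both groups, while NOP56 was higher in shMAGED2 2. The FPKM ratio of NOP58 to NOP56 was 1.75 and 1.86 in shCON and 1.66 and 1.34 in shMAGED2, lower in both knockdown libraries. SNU13, the remaining core protein, which belongs to the pathway list, was at 58.9 and 55.9 CPM in shCON and at 53.1 and 62.7 CPM in shMAGED2 (log2 change 0.013, SE 0.12; edgeR adjusted p = 0.951). Its groups overlapped.

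The box H/ACA particle, which guides pseudouridylation and whose proteins also bind telomerase RNA, had 1 rise among its 4 proteins. NHP2, the RNA-binding subunit, was at 59.3 and 56.3 CPM against 76.6 and 89.2 CPM (log2 change 0.52, SE 0.12; edgeR adjusted p = 0.0271). It missed the threshold with library size alone, in both fits to FPKM and without either shCON library. Dyskerin, DKC1, the pseudouridine synthase, was at 61.5 and 66.8 CPM against 75.2 and 89.1 CPM (log2 change 0.36, SE 0.12; edgeR adjusted p = 0.0857), and GAR1 at 14.0 and 15.8 CPM against 19.3 and 19.6 CPM (log2 change 0.38, SE 0.15; edgeR adjusted p = 0.115). For both, the knockdown libraries were the higher ones without the test being passed. NOP10, the smallest subunit, was at 37.3 and 38.0 CPM in shCON and at 31.7 and 54.1 CPM in shMAGED2, so that the knockdown libraries fell on either side of the controls (log2 change 0.19, SE 0.25).

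Factors of the small subunit act on the 5′ part of the precursor, in a large particle built around the U3 snoRNP, and then in the cytoplasm. Of 14 genes 7 rose and 1 fell, with a median log2 change of 0.38. NAT10, which acetylates cytidines of 18S ribosomal RNA (chromosome 11, 34105602 to 34147670), was at 71.5 and 65.4 CPM against 110.4 and 107 CPM (log2 change 0.67, SE 0.10; edgeR adjusted p = 0.008). UTP20, a long scaffold protein of the early particle, was at 74.5 and 77.9 CPM against 120.0 and 109.9 CPM (log2 change 0.59, SE 0.10; edgeR adjusted p = 0.0112). TSR1, a GTPase-like factor of the late cytoplasmic particle, was at 99.2 and 105 CPM against 143 and 154 CPM (log2 change 0.54, SE 0.10; edgeR adjusted p = 0.0137). Each of these 3 genes was higher in both knockdown libraries, with gaps between the groups wider than the distance between replicates.

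The t-UTP complex is the first to bind the precursor and is also needed for its transcription. Of its 5 proteins on the list 3 rose. WDR75 was at 58.5 and 52.0 CPM against 84.8 and 77.8 CPM (log2 change 0.56, SE 0.11; edgeR adjusted p = 0.0202). It missed the threshold in both fits to FPKM. HEATR1 had a log2 change of 0.32 (SE 0.09; edgeR adjusted p = 0.0462) and WDR43 one of 0.45 (SE 0.12; edgeR adjusted p = 0.0488). UTP4 (0.31, SE 0.12) and UTP15 (0.19, SE 0.11) were higher in both knockdown libraries but did not pass. DDX10, an RNA helicase of the early particle, also rose, by a log2 change of 0.50 (SE 0.13; edgeR adjusted p = 0.0429). RRP12, an export factor of both subunits (0.41, SE 0.12; edgeR adjusted p = 0.0579), NOP14, a scaffold of the early particle (0.36, SE 0.12), BYSL, which joins and leaves the late nuclear particle (0.33, SE 0.19), and RRP9, a protein of the U3 snoRNP (0.21, SE 0.20), did not pass. The groups of RRP9 overlapped.

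NOB1, the gene that fell, encodes the endonuclease that makes the last cut to mature 18S ribosomal RNA in the cytoplasm (chromosome 16, 69741867 to 69754940). It was at 80.4 and 84.0 CPM in shCON and at 65.8 and 62.5 CPM in shMAGED2 (log2 change −0.36, SE 0.10; edgeR adjusted p = 0.0478). The groups did not overlap. It stayed just inside the threshold, as did DDX10, HEATR1, WDR43 and the large subunit factor WDR12, the 5 genes with an adjusted p of 0.04 to 0.05; another 7 genes lay between 0.05 and 0.1. HEATR1, DDX10 and WDR12 passed in 8 of the 15 other settings, and missed the threshold with upper-quartile factors, library size alone, both fits to FPKM, a replicate block and either shCON library left out. WDR43 missed it there and in limma-voom, and passed in 7. NOB1 missed the threshold in both fits to FPKM, with a replicate block and without either shCON library. Without either shCON library edgeR called 0 of the 14 small subunit genes, against 8 with all libraries, and 4 had an unadjusted p under 0.05 in each of these fits.

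Factors of the large subunit bind the 3′ part of the precursor. Of 14 genes 8 rose, and the median log2 change was 0.46. BOP1 (chromosome 8, 144262102 to 144291370), a WD repeat protein needed for 28S and 5.8S maturation, was at 27.5 and 24.4 CPM against 49.9 and 49.8 CPM (log2 change 0.94, SE 0.12; edgeR adjusted p = 0.005). NOP2, which methylates a cytosine of 28S ribosomal RNA, was at 46.1 and 47.4 CPM against 79.2 and 76.1 CPM (log2 change 0.73, SE 0.10; edgeR adjusted p = 0.00592). It overlaps the coding entry AC006064.6 on its own strand, which leaves the assignment of its reads uncertain. NOP16 (chromosome 5, 176383938 to 176388975), an early 60S factor, was at 17.6 and 16.9 CPM against 39.2 and 31.0 CPM (log2 change 1.02, SE 0.16; edgeR adjusted p = 0.00886). MRTO4, which holds the place of the stalk protein P0 during assembly, was at 51.0 and 42.8 CPM against 75.5 and 83.5 CPM (log2 change 0.76, SE 0.13; edgeR adjusted p = 0.0114). In none of these 4 genes did the groups overlap.

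The other rises of this step were smaller or more spread. PPAN, a factor of the Brix family, rose by a log2 change of 0.95 (SE 0.18; edgeR adjusted p = 0.0163), with its knockdown libraries apart at 55.0 and 40.1 CPM, and it overlaps the read-through gene PPAN-P2RY11 on the same strand. EBNA1BP2, a nucleolar scaffold, rose by 0.56 (SE 0.11; edgeR adjusted p = 0.0189). GRWD1, a histone-binding WD repeat protein that also handles ribosomal protein uL3, rose by 0.59 (SE 0.15; edgeR adjusted p = 0.038), and overlaps KCNJ14 on the same strand. Like NHP2, GRWD1 missed the threshold with library size alone, in both fits to FPKM and without either shCON library. RRP1 (0.34, SE 0.11) and its paralog RRP1B (0.27, SE 0.09) did not pass, at edgeR adjusted p-values of 0.0681 and 0.0851, although both were higher in both knockdown libraries. NIP7 (0.37, SE 0.16), an RNA-binding factor, and the nucleolar GTPase GNL3, nucleostemin (0.18, SE 0.10), did not pass either. The helicase DDX18 lay at 83.7 and 84.8 CPM in shCON and at 74.7 and 93.9 CPM in shMAGED2, on either side of the controls. Its estimate of 0.0021 (SE 0.13) had no settled sign, being negative under each of the other scalings.

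PES1, BOP1 and WDR12 form the PeBoW complex, and the 3 transcripts did not move alike. BOP1 rose as above and WDR12 rose from 60.5 and 58.7 to 75.2 and 78.4 CPM (log2 change 0.37, SE 0.10; edgeR adjusted p = 0.0447). PES1 was at 121 and 119 CPM in shCON and at 123 CPM in both shMAGED2 libraries (log2 change 0.04, SE 0.09; edgeR adjusted p = 0.792), and its estimate turned to −0.0084 with upper-quartile factors and −0.023 with library size alone. The FPKM ratio of BOP1 to PES1 was 0.223 and 0.201 in shCON and 0.399 in both shMAGED2 libraries. That of WDR12 to PES1 was 0.140 and 0.137 against 0.170 and 0.179.

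**Figure D3:**
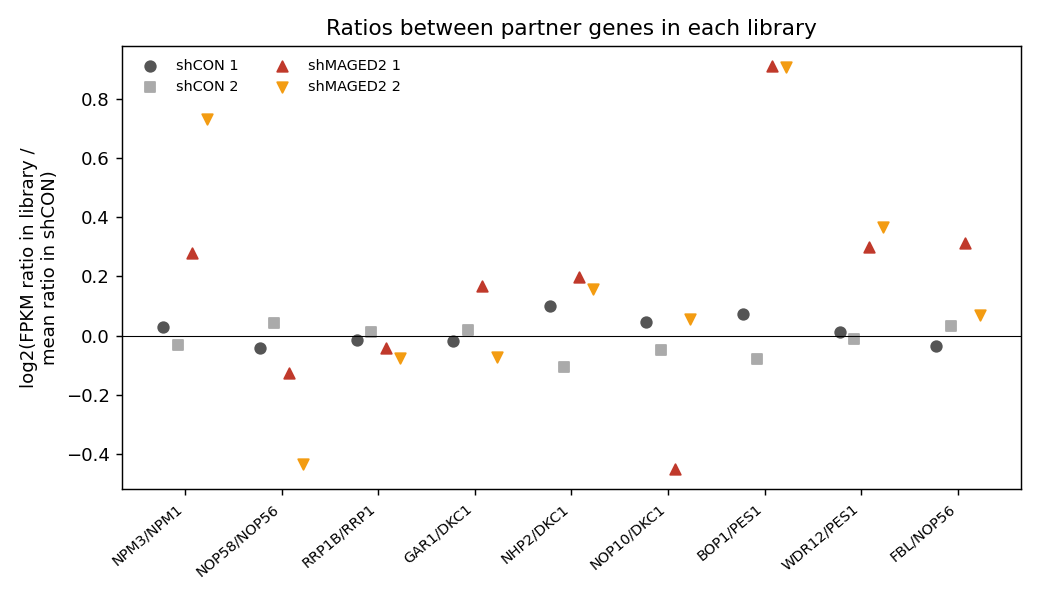
FPKM ratio of partner genes (paralogs or subunits of 1 complex) in each library, as log2 relative to the mean ratio of the 2 shCON libraries. BOP1/PES1 is higher in both shMAGED2 libraries, which coincide, NOP58/NOP56 is lower in both, and NOP10/DKC1 and GAR1/DKC1 overlap between the groups.

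Levels were compared between genes as FPKM, although the gene lengths behind it are not stated in the labels. FPKM was taken as the authors gave it, without the TMM scaling used for CPM. In shCON the 48 genes ran from 3.62 FPKM for GRWD1 to 800.0 FPKM for NPM1, with a median of 18.6, and 45 of the 48 were above the median of all genes tested, 7.14 FPKM. NCL followed NPM1 at 128 ± 1.2 FPKM (SD, n = 2). NOP10 (66.7 ± 0.831), NHP2 (66.5 ± 2.85), FBL (54.0 ± 0.0891) and PES1 (52.1 ± 0.553) came next, and the first 2 of these did not differ beyond their spread (SD, n = 2 each). In shMAGED2 NCL reached 209 ± 18.9, FBL 102 ± 5.38 and NOLC1 80.9 ± 4.95 FPKM, while NPM1 was at 668 ± 34.8 FPKM (SD, n = 2 each). Summed over the 48 genes, CPM was 4686 and 4641 in shCON and 6044 and 5808 in shMAGED2. With NPM1 and NCL left out, the sums were 2909 and 2875 against 3964 and 3913 CPM. The snoRNP genes alone went from 495 and 499 to 839 and 849 CPM. Across the 48 genes, Spearman's rho between the shCON FPKM and the log2 change was −0.20, a description over genes that share their libraries and are not independent replicates.

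**Figure D4:**
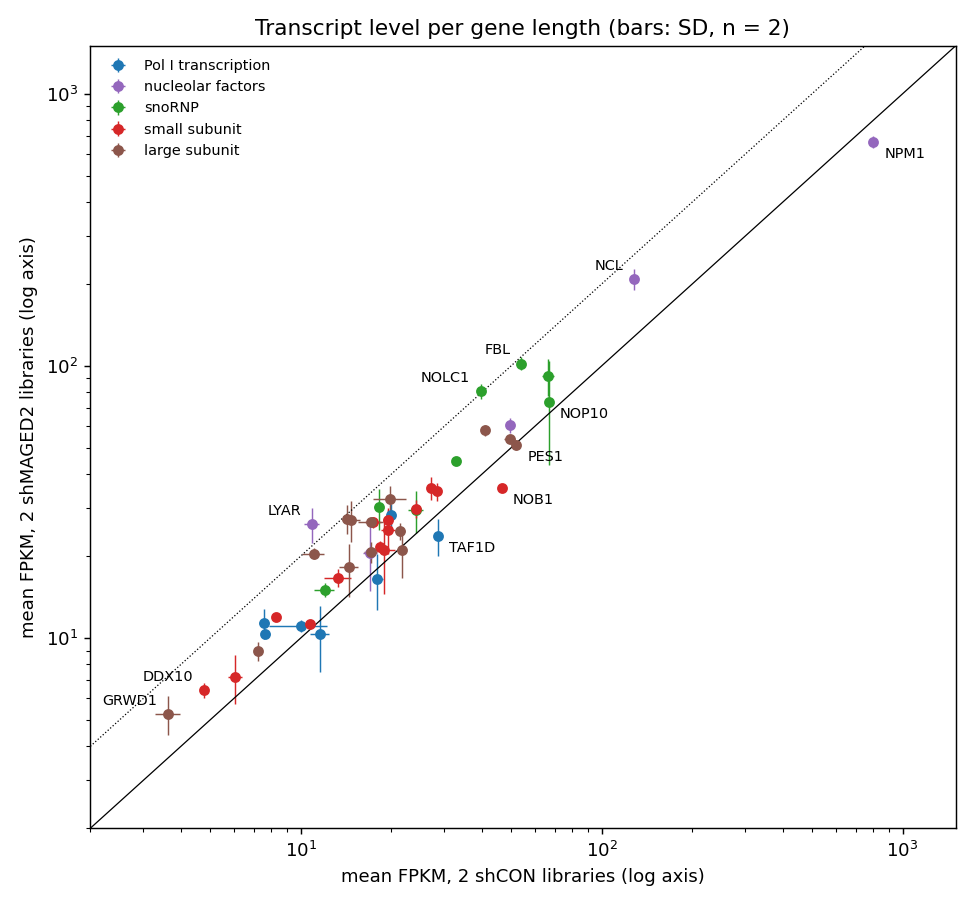
Mean FPKM of each gene in shMAGED2 against shCON, both axes logarithmic, with the SD of 2 libraries as bars. The solid line marks equal levels and the dotted line a 2-fold higher level in shMAGED2. LYAR lies above the dotted line, and NOLC1 and FBL are among the genes near it. NPM1, NOB1, TAF1D, POLR1C, RRN3, PES1 and DDX18 lie below the solid line.

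Several of these genes have genes of small nucleolar RNAs, the guides used by the snoRNPs, within their bounds. Whether these lie in introns was not checked. In GENCODE 29, 9 of the 48 (18.8%) contain snoRNA genes on their own strand, 35 annotated entries in all, against 1.62% of the 13316 tested genes with coordinates. TAF1D contains 8, GNL3 contains 6, NOP56 contains 5 and NOP58 contains 4. Of the 9 hosts 6 rose (NCL, NOP56, NOP58, TSR1, WDR43 and PPAN), and TAF1D, DKC1 and GNL3 did not pass. Among all 216 tested host genes 18.5% rose and 10.6% fell. The counts are per gene, so they do not tell the spliced host message from its introns.

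Beyond the 48 genes, 133 others of the pathway were chosen from textbook knowledge, with earlier results of these data known. Of these 38 rose (28.6%) and 3 fell, with a median log2 change of 0.32, where 12.3% and 11.6% of all genes tested rose and fell. Among tested genes at the level of the 48 or above, 16.3% rose and 13.6% fell. Without shCON 1 and shCON 2, 4 and 5 of them rose, and without shMAGED2 1 and 2, 72 and 70. Among 18 genes of polymerase I transcription 4 rose (22.2%). They included TCOF1, treacle, a scaffold of UBTF and the polymerase (log2 change 1.03, SE 0.11). They also included CD3EAP, a polymerase I subunit that overlaps 2 coding genes on the opposite strand (1.19, SE 0.18). POLR2K, a small subunit shared by the nuclear polymerases, rose too (0.75, SE 0.13). Of 11 snoRNP genes, SNU13 among them, 2 rose (18.2%), near the share at that level, and their median log2 change was 0.072. The rises were those of the paired ATPases RUVBL1 (0.54, SE 0.10) and RUVBL2 (0.87, SE 0.14). Of 43 small subunit factors 7 rose (16.3%), the same share as the 16.3% of tested genes at the level of the 48 or above, with PDCD11 (0.53, SE 0.10), NOL11 (0.49, SE 0.11) and TSR2 (0.51, SE 0.12) at the smallest p. These edgeR adjusted p-values ran from 0.00262 for TCOF1 to 0.033 for TSR2.

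Large subunit factors held the most rises on that list, 22 of 48 (45.8%). TEX10, part of a complex that trims the spacer next to 28S RNA, was at 72.7 and 72.1 CPM in shCON and at 152 and 158 CPM in shMAGED2 (log2 change 1.10, SE 0.09; edgeR adjusted p = 0.0014). CCDC86 (0.79, SE 0.11) and SPATA5, the ATPase that strips early factors from the exported large subunit (1.07, SE 0.15), also rose. The 2 large subunit genes that fell were NOP53 (−0.68, SE 0.13; edgeR adjusted p = 0.0153), which brings the exosome to the precursor, and RSL24D1 (−0.74, SE 0.17; edgeR adjusted p = 0.0273), a factor released by SPATA5. Of 13 genes of the RNA exosome and its cofactors, which trim ribosomal RNA from its 3′ end, 3 rose (23.1%). The rises were those of EXOSC2 (0.78, SE 0.12), EXOSC9 (0.66, SE 0.11) and EXOSC10 (0.70, SE 0.17). EXOSC9 overlaps the cyclin gene CCNA2 on the opposite strand. EXOSC6, a ring subunit, fell from 55.9 and 61.9 to 29.4 and 30.9 CPM (log2 change −0.97, SE 0.12; edgeR adjusted p = 0.00411). Whether the steps differ from each other was not tested.

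**Figure D5:**
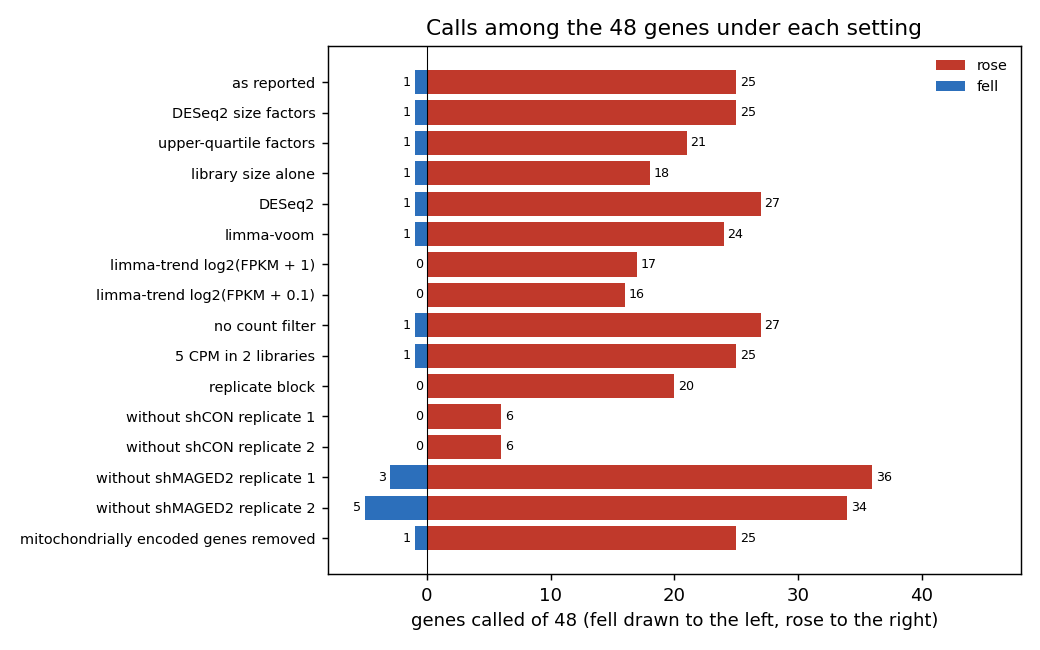
Number of the 48 genes called at an adjusted p under 0.05 as reported and under each other setting, with rises to the right and falls to the left of 0. Most settings lie between 16 and 27 rises, and leaving out 1 library gives 6 rises without a shCON library and 36 or 34 without a shMAGED2 library.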

How the data were processed

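RNA from 2 shCON and 2 shMAGED2 libraries was grouped by sample title. The authors deposited whole-number counts per gene and FPKM values, for which the submitters' processing notes name the build hg38 and the tools HISAT2, StringTie and SAMtools without versions or roles. Annotation, gene lengths and strand setting are not stated in the labels, so that overlapping genes, antisense partners and near-identical copies are uncertain (4 of the 48 genes overlap a coding gene on their own strand, 16 on the other, 10 have named pseudogenes). Counts were tested on the whole table in edgeR 4.0.16 (R 4.3.3): filterByExpr, TMM, robust quasi-likelihood fit with group as its term, two-sided, Benjamini-Hochberg over 15293 genes, threshold 0.05. SEs derive from the F statistic; there were 2 residual degrees of freedom and a biological coefficient of variation of 0.167. CPM use TMM-scaled totals. Limits from 3 counts cover counting error only. A chi-square test put the replicate pairs beyond sampling noise (7.42 in shCON and 89.5 in shMAGED2, each divided by its degrees of freedom), so neither pair was treated as repeat deposits of 1 library.

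Genes and lists were chosen with earlier results of these data known. Every gene is placed by step; the 4 smallest p per step, any gene called against its step's direction, set complexes and paralogs, and up to 3 pathway genes per step and direction get values. Coordinates are GENCODE 29. Alternatives were other scalings, DESeq2 1.42.0, limma 3.58.1 (voom, and trend on log2(FPKM + 1) or log2(FPKM + 0.1), a scale that understates changes of low genes, for FPKM of at least 1 in 2 libraries), other filters, a replicate block, each library left out and mitochondrial genes removed. The main edgeR test was tried on simulated counts with 1 dispersion trend for both groups, and the other fits were not.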

Additional observations from a re-analysis of the deposited data

How the results depend on the processing

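The number of calls moved with the library left out, while the median log2 change of the 48 genes was 0.42 without shCON 1, 0.44 without shCON 2, 0.46 without shMAGED2 1 and 0.41 without shMAGED2 2. Leaving out 1 library in turn, the rises among the 48 genes ranged from 6 to 36 and the falls from 0 to 5. By step, rises ranged from 0 to 3 for polymerase I transcription, 1 to 4 for nucleolar factors, 2 to 7 for snoRNP, 0 to 11 for small subunit and 3 to 11 for large subunit genes, and falls from 0 to 2, 0 to 1, 0 to 0, 0 to 1 and 0 to 1. Rises on the pathway list ranged from 4 to 72 and its falls from 1 to 10, and over all genes 567 to 3725 rose and 533 to 3722 fell. MAGED2 ranged from −3.31 to −3.03 and passed in every setting. Fewer genes passed on the FPKM scale: 17 and 16 of the 48 rose with a pseudocount of 1 and of 0.1 and 0 fell in both, small subunit rises were 3 and 2 with 0 falls, pathway rises were 21 and 21, and over all genes 1244 rose with a pseudocount of 0.1. Small subunit rises were 4 with upper-quartile factors and 4 with library size alone. With a filter of 5 CPM, 5 pathway genes fell. The cause of these differences was not tested.

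A replicate block gave 20 rises and 0 falls among the 48 genes, with 4 rises and 0 falls of small subunit genes. The shared numbers do not pair the libraries by any label, and deviations of same-numbered libraries correlated at −0.034 over genes. DESeq2 called 27 rises and limma-voom 24.

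Estimates near 0 changed sign. DDX18 was −0.00011 with DESeq2 size factors and −0.00011 in DESeq2, −0.043 with upper-quartile factors, −0.053 with library size alone, −0.0018 in limma-voom, −0.062 and −0.066 on log2(FPKM + 1) and log2(FPKM + 0.1), −0.018 with the 5 CPM filter, −0.0075 with the replicate block, and −0.010 without shCON 1. PES1 was −0.0084 with upper-quartile factors, −0.023 with library size alone, and −0.024 in both FPKM fits. Over fits that left out 1 library, DDX18 ranged from −0.17 to 0.16, POLR1C from −0.34 to 0.10, RRN3 from −0.26 to 0.077, NOP10 from −0.25 to 0.52, RRP9 from −0.096 to 0.46 and POLR1E from −0.0065 to 0.41. These 7 genes were not called with all libraries. Of the 17 pathway genes named because they passed the test, 0 changed direction in the 15 settings. SNU13, named as a box C/D core protein, was not among these 17.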
